A study of Mus musculus with 5 samples.

Results

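The genes described here were the small nucleolar RNA (snoRNA) and small Cajal body RNA (scaRNA) genes of the mouse hippocampus. Of 23361 gene symbols in each deposited table, 119 began with Snora, Snord or Scarna. The 32 genes studied were selected on their measured level: each was above 0 FPKM in at least 1 of the 5 libraries, and the other 87 were listed at 0 in all of them. FPKM, the deposited unit, counts sequenced fragments scaled by the length of the transcript and by the depth of the library. The genes above 0 comprised 24 of 36 Snora, 4 of 74 Snord and 4 of 9 Scarna genes. At the edge of this rule, *Snora24* had the lowest maximum (13.6 FPKM), followed by *Snora81* (38.0 FPKM) and *Snora47* (38.5 FPKM), and every gene outside it was at 0.

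RNA-seq libraries were made from total hippocampal RNA of 3-month-old mice, for which the study describes the young animals as male. Control mice carried the floxed *Hdac1* allele on both chromosomes without Cre (Hdac1f/f, n = 2), and *Hdac1* cKO mice carried the same floxed alleles with Nestin-Cre (Hdac1f/f, Nestin-Cre, n = 3). Cre driven by the Nestin promoter removes the gene in neurons and astrocytes, and the study found HDAC1, a class I histone deacetylase, still present in microglia. The comparison asks which RNAs differ in level when HDAC1, which acts on chromatin, is missing from these cells at a young age. The labels only number the libraries, and the study counts them as mice. No Cre-only group was analysed here, so an effect of the Cre transgene and one of the deletion cannot be told apart.

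Box H/ACA snoRNAs (Snora genes) pair with ribosomal RNA and bring the pseudouridine synthase dyskerin to chosen uridines, while box C/D snoRNAs (Snord genes) bring the methyltransferase fibrillarin to chosen riboses. scaRNAs do the same to spliceosomal RNAs in the Cajal body, and some carry both kinds of box. In mammals nearly all of these RNAs are cut out of introns of other genes, their hosts, many of which encode ribosomal proteins or are non-coding snoRNA host genes (Snhg). Some box C/D snoRNAs are instead needed for the cleavage of ribosomal RNA precursors, among them U22 (*Snord22*) and U8 (*Snord118*). Because whole tissue was sequenced, fewer cells of a type and less RNA per cell cannot be told apart.

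The boxes that define these classes were visible in the genomic sequence of the genes (NCBIM37 assembly, the same build as mm9, with GENCODE vM1 gene models, transcript strand). Shown first are *Snora30*, which was listed at 0 in every cKO library, and *Snora5c*, which had a value in 1 library only. Both were selected through control values alone. With them stand the related pair *Scarna3a* and *Scarna3b*, which were higher in all cKO libraries. *Snord15b* is added as the box C/D example. Capitals mark the ACA box near the 3′ end, and in *Snord15b* the TGATGA of box C and the CTGA of box D.
Snora30 (chr7:134671388-134671517, + strand): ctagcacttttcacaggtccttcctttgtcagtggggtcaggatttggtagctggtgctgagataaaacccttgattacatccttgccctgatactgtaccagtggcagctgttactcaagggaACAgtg
Scarna3a (chr1:161270414-161270553, + strand): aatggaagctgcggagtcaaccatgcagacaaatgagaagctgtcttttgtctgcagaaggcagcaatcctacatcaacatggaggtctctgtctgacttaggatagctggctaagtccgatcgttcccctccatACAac
Scarna3b (chr12:81492600-81492738, − strand): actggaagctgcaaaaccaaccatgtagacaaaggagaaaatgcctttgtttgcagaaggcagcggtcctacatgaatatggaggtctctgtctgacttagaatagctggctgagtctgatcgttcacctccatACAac
Snora5c (chr11:6520322-6520457, − strand): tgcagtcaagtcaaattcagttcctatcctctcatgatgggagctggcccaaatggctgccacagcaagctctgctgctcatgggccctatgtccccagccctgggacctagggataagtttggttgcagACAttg
Snord15b (chr7:106628073-106628217, − strand): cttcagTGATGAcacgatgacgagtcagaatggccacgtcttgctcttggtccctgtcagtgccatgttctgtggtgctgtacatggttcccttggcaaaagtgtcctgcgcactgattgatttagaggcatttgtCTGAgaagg

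For the other genes that met the fold and p threshold given below, with or without the set of libraries as a block, and have a gene model, the last 30 bases show where the box lies, again with ACA in capitals. The models of *Snora44* and *Snora81* have no ACA in their last 10 bases and are shown in lower case throughout.
Snora16a (chr4:131865380-131865515, + strand): tgatctgcaacattgtggaaaatgACAgct
Snora21 (chr11:97642953-97643089, − strand): tgtttaacttcaatcggtgttgtgACAaga
Snora31 (chr14:76247712-76247841, + strand): gcagttcagattgaattagggagtACAtct
Snora35 (chrX:143428924-143429051, + strand): ggctactcccgcatgcaggtgggtACAtag
Snora43 (chr2:26493367-26493505, − strand): gcactaagaatggtttgtagcctgACAttt
Snora44 (chr4:131865856-131865984, + strand): ctgcagctgccactcatctttcctatatat
Snora47 (chr13:96100555-96100692, + strand): gaggggcagcactgagctggcccACAttgt
Snora52 (chr7:148634702-148634838, + strand): ggcttgtgcctgcagcgcttcagaACAccc
Snora70 (chrX:71517823-71517959, + strand): gggctgcctcaagggaccttggagACAatt
Snora78 (chr17:24856621-24856748, − strand): tgggagggtgaaacccaggcccctACAttc
Snora81 (chr16:23110829-23111006, + strand): tcctatgtcataagattcggtgcaataagt

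In the Snora and Snord classes the boxes were found in genes above 0 and in genes at 0. An ACA within the last 10 bases was found in 19 of 21 Snora genes above 0 with a gene model and in 11 of 11 Snora genes at 0. Windows of the same length just upstream of all 102 small RNA genes with a gene model held it in 6.86% of cases. The letters of the hinge motif, ANANNA, stood somewhere before that ACA in the same 19 genes above 0. They were sought at any position, and 4 of the 7 upstream windows with the ACA held them too. Their presence therefore says little, and the upstream share of the combination, 3.92%, is kept low by the ACA. *Snora81* and *Snora44* were the Snora genes above 0 without the ACA in this window. Among Snord genes, TGATGA within the first 20 bases was found in 3 of 4 above 0 and 34 of 57 at 0, with no upstream window holding it. CTGA within the last 20 bases was found in 4 of 4 above 0 and 56 of 57 at 0, against 8.82% of upstream windows. Of the Scarna genes above 0, *Scarna13*, *Scarna3a* and *Scarna3b* ended in the ACA box, and *Scarna6* held TGATGA and CTGA in its place. Of the 5 Scarna genes at 0, 1 held the ACA, 3 held TGATGA and 4 held CTGA, so in this small class the mix of boxes differed from that of the 4 genes above 0. Motifs were searched on the transcript strand only, and a match is a description of letters.

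*Scarna3a* and *Scarna3b* were the most alike of the 29 genes with a sequence, with 120 identical bases, or 86.3% of the shorter gene. They lie on different chromosomes, in introns of *Rfwd2* and *Dcaf5*. A total of 5 genes had a further near-identical copy elsewhere in the genome (at least 95% identity over at least 90% of their length), namely *Snora21*, *Snora3*, *Snora30*, *Snora5c* and *Snora81*. The copy of *Snora30* lies at chr14:96988046-96988175 and was 98.5% identical to it. Reads of these copies could be split between loci in the counting, and their values are uncertain to that extent.

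Annotated length set most Snord genes at 0 apart from the rest. The 29 genes above 0 with a gene model were 126 to 275 nt long (median 137 nt), and the 73 genes at 0 with a gene model were 64 to 414 nt long (median 84 nt). Of these 73, 58 were shorter than the shortest gene above 0, and 56 of the 58 were Snord genes. Among genes with a gene model, none shorter than *Snord22* (126 nt) had a value above 0. The length of *Snora15*, *Snora24* and *Snora26* was not analysed here. Length did not set the Snora genes apart, since 11 of them at 0 were 128 to 149 nt long and 21 above 0 were 127 to 196 nt long. *Snord118* (U8, 135 nt), which cells need to make the large ribosomal subunit, was also listed at 0 in all 5 libraries. A 0 in these tables is therefore given only as a listing at 0 and not as absence of the RNA. Among the genes above 0, length and mean FPKM had a Spearman correlation of 0.093 across 29 genes, given as a description.

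**Figure D1:**
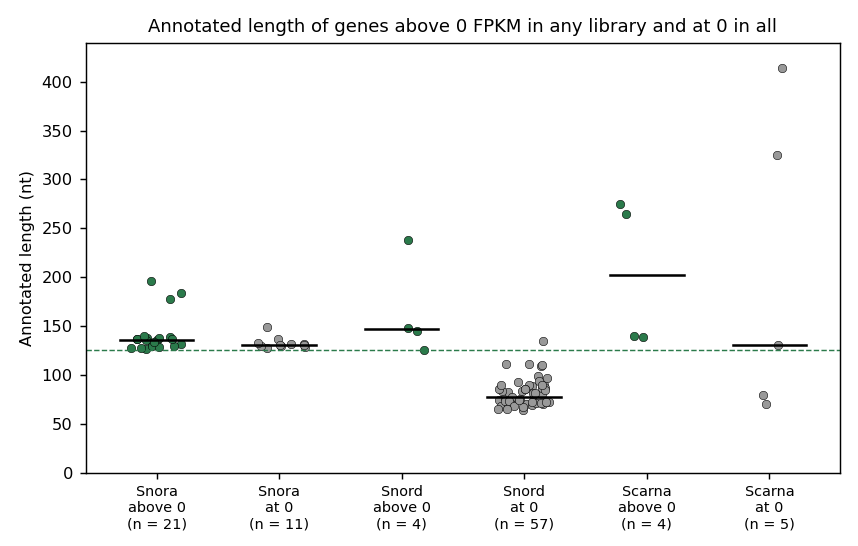
Annotated length in nt (vertical axis) of Snora, Snord and Scarna genes above 0 FPKM in any library (green) and at 0 in all 5 (grey), 1 point per gene with a gene model, with the median of each column as a black bar and the shortest gene above 0 (126 nt) as a dashed line. Of 57 Snord genes at 0, 56 lie below the line, whereas all 11 Snora genes at 0 lie above it.

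The 5 libraries held 565363 to 636705 FPKM in total, and steps in their low values gave an estimated depth of 5140000 to 6770000 fragments per library. At that depth 1 fragment on 130 nt is worth 1.14 to 1.497 FPKM at its annotated length, but the effective length used for genes shorter than the fragments is not given in the sources used here. How many fragments stand behind a small RNA's FPKM is therefore unknown. Shared steps in the ratios of low values between libraries placed the libraries in sets that cross the genotypes. Set 1 held control 1 and cKO 1, and set 2 held control 2, cKO 2 and cKO 3. *Hdac1* had 8.95 and 13.1 FPKM in controls 1 and 2 and 1.95, 3.12 and 3.37 FPKM in cKO 1, 2 and 3, so the groups did not overlap and the labels held (log2 difference −1.66, SE 0.21, limma adjusted p = 0.219, and −1.74 with adjusted p = 0.00389 with the set as a block). All 12 hippocampal marker genes examined were above 1 FPKM in every library.

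Small RNA genes varied in level by several orders of magnitude. *Snora74a* (the U19 RNA), *Snora44*, *Snord22* and *Snora26* had the highest means and together held 48.6% of the summed mean FPKM of the 32 genes. A total of 10 genes exceeded 1000 FPKM in every library, 5 lay between 100 and 1000 FPKM in every library, and 4 never reached 100 FPKM. *Snora74a* had 8412 and 9611 FPKM in controls 1 and 2 and 13445, 9169 and 8322 FPKM in cKO 1, 2 and 3. Its groups overlapped, with cKO 1 standing above the other 4 libraries.

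**Figure D2:**
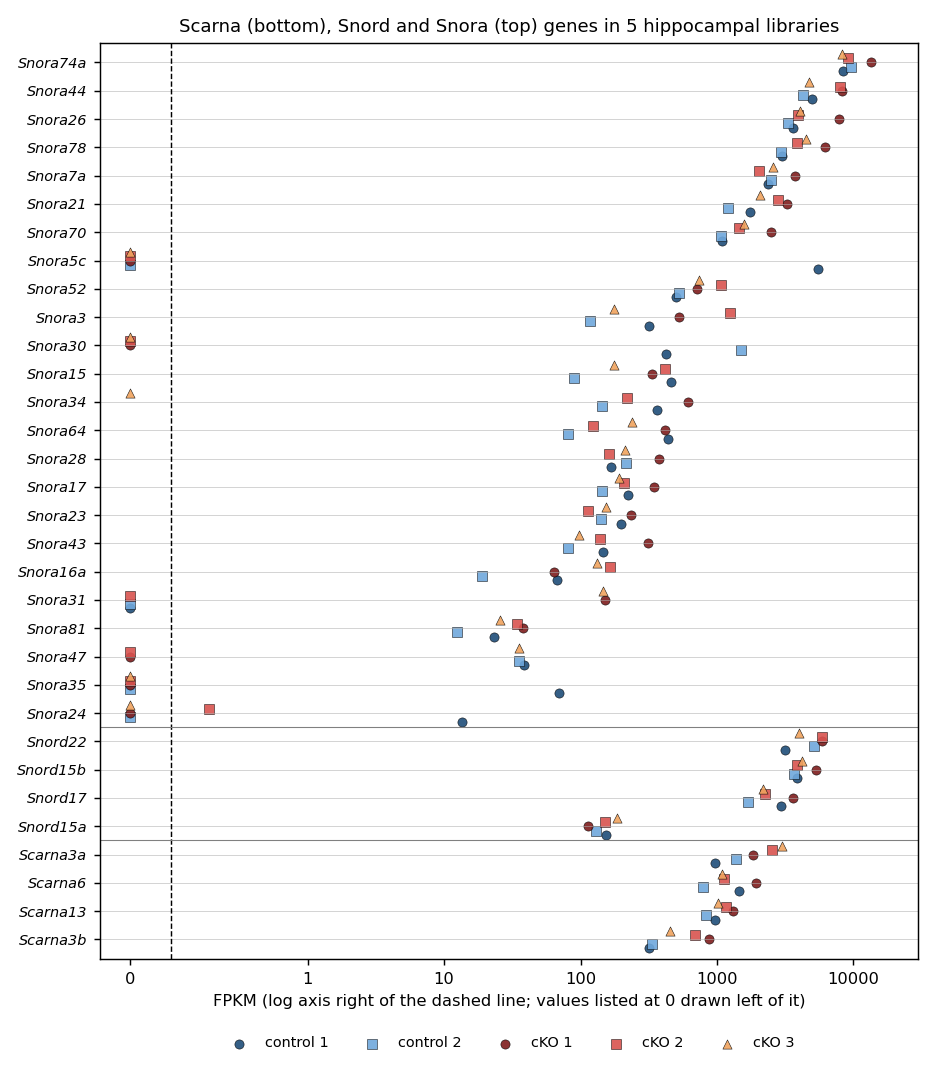
FPKM (horizontal log axis, with values listed at 0 drawn left of the dashed line) of the 24 Snora, 4 Snord and 4 Scarna genes, ordered by mean within each class, with 1 symbol per library (blue, controls 1 and 2; red and orange, cKO 1, 2 and 3) and a small vertical offset between libraries. Cases of a gene at 0 in some libraries and far above it in others, such as *Snora5c* (5533 FPKM in control 1) and *Snora30* (426 and 1502 FPKM in the controls), are all among the Snora genes.

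The detection pattern was the same for most genes in all libraries, and 25 of the 32 were above 0 in every one. Of the other 7, all Snora genes, 2 were above 0 in 1 library, 3 in 2, 1 in 3 and 1 in 4 libraries. A 0 in any library was found for 0.173% of the 12740 genes tested (those averaging 1 FPKM or more), these 7 included, and for 15 of the 12708 tested genes outside the 32 (0.118%). Control 1 had 1 of the 32 genes at 0 and control 2 had 4, while cKO 1, cKO 2 and cKO 3 had 5 each. The rule for choosing genes needed a value in any library, so a gene at 0 in a whole group entered only through the other group and had to differ. This applies to *Snora30*, *Snora5c* and *Snora35* at 0 in the cKO group and to *Snora31* at 0 in the controls.

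*Snora30* lies in an intron of *Srcap*, a chromatin remodeller gene whose own level was not analysed here. It had 426 FPKM in control 1 and 1502 FPKM in control 2 and was listed at 0 in cKO 1, 2 and 3. Both controls were thus high and the 3 cKO libraries were at 0, within set 1 and within set 2 alike. It was the 1 gene of 12740 with a limma adjusted p under 0.05 (0.00785% of those tested), but it entered through its control values alone and could only come out lower, so nothing is read from that p. No fold is given for it, since the fitted difference is fixed by the pseudocount and the controls themselves lay far apart.

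None of the other 6 genes with a 0 was at 0 throughout 1 group and above 0 throughout the other. *Snora5c*, within *Tbrg4*, had 5533 FPKM in control 1 and was listed at 0 in control 2 and in cKO 1, 2 and 3. *Snora35*, a brain-specific snoRNA in an intron of the serotonin receptor gene *Htr2c*, had 69.2 FPKM in control 1 and was listed at 0 in the other 4 libraries. In both, control 1 alone was high, and control 2 was at 0 like the cKO libraries. *Snora31*, in an intron of *Tpt1*, was listed at 0 in both controls and in cKO 2 and had 152 and 147 FPKM in cKO 1 and cKO 3. *Snora47*, in an intron of *Zbed3*, had 38.5 and 35.7 FPKM in controls 1 and 2, was at 0 in cKO 1 and cKO 2 and had 35.5 FPKM in cKO 3. Each of these 2 genes showed almost the same value wherever it was above 0, so libraries of 1 genotype differed between that value and 0. *Snora34*, in an intron of *Kansl2*, had 363 and 144 FPKM in controls 1 and 2, 613 and 220.4 FPKM in cKO 1 and 2, and was at 0 in cKO 3. *Snora24*, within *Snhg8*, had 13.6 FPKM in control 1 and 0.190 FPKM in cKO 2 and was at 0 in control 2, cKO 1 and cKO 3. Neither gene separated the groups. The value of *Snora24* in cKO 2 lay below what 1 fragment on 130 nt would give.

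The comparison of genotypes over all 32 genes leaned to higher values in the cKO libraries. In all, 25 genes had a log2 difference above 0 and 7 below, against 53.7% above 0 among all 12740 genes, and the median log2 difference was 0.36 against 0.01 for all genes. With each library rescaled to the same total, 24 of the 32 were above 0 against 37.7% of all genes. Leaving out control 2 left 20 of the 32 above 0 against 58.6% of all genes, and leaving out cKO 1 also left 20 against 56.7%, shares close to the background. The 7 below 0 were *Snora23* and 6 of the genes with a 0. Within set 1, 23 of the 32 were higher and 9 lower (median 0.65), against 52.0% of all genes higher. Within set 2, 22 were higher and 8 lower (median 0.44), against 49.8% of all genes higher. The 25 genes above 0 in every library ranged from −0.07 to 1.62, and since a 0 in the cKO group is what made most of the other 7 lower, the direction of these 25 is partly set by leaving those out. The groups did not overlap, with cKO higher, for 10 of the 32 genes (11% of all genes) and, with cKO lower, for 2 genes (9.41% of all genes), *Snora30* and *Snora47*. *Snora30*, at 0 in the whole cKO group, could come out in no other way. For *Snora47* this rests on 35.7 FPKM in control 2 against 35.5 FPKM in cKO 3.

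Of the 32 genes, 11 had a fold change of at least 1.5 on the log2(FPKM + 1) scale with an unadjusted p under 0.05, the threshold the study used, against 0.659% of all genes. Of these, 9 were higher in the cKO group (0.4% of all genes), namely *Scarna3a*, *Scarna3b*, *Snora16a*, *Snora21*, *Snora31*, *Snora52*, *Snora70*, *Snora78* and *Snora81*. *Snora30* and *Snora47* were lower (0.259% of all genes). In all, 13 genes had an unadjusted p under 0.05 (4.36% of all genes). Apart from *Snora30*, all of these had a limma adjusted p of 0.955 over the 12740 genes, so none passed the correction. *Snora30* and *Snora31* were at 0 in a whole group and could differ in 1 direction only. Over the 28 genes not at 0 in a whole group, 9 met the fold and p threshold, 8 higher and 1 lower, 11 had an unadjusted p under 0.05 and none had an adjusted p under 0.05 in limma. Leaving out cKO 1 lowered the count of 11 to 7, against 1.18% of all genes in that fit. Leaving out control 2 gave 4 genes with an adjusted p under 0.05 (0.0393% of all genes). The 3 added were *Snora24*, *Snora35* and *Snora5c*, which have a value in control 1 and a 0 in control 2, and with a single control the spread comes from the cKO libraries alone, so this outcome was fixed by the omission. Leaving out cKO 2 added *Snora31* and leaving out cKO 3 added *Snora47*, in each case by removing the library that differed from its group.

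With the set of libraries as a block, 2 genes had an adjusted p under 0.05 (0.0392% of all genes), *Snora30* and *Scarna3a*. In that fit 16 of the 32 genes met the fold and p threshold (0.746% of all genes). Of these, 12 were higher in the cKO group (0.471%) and 4 were lower (0.275%). The 3 genes that joined the higher group were *Snora26*, *Snora43* and *Snora44*, and *Snora5c* and *Snora35* joined the lower one. Nothing is read from the calls of *Snora30*, *Snora31*, *Snora5c* and *Snora35*, which were at 0 in a whole group. Over the other 28 genes this fit gave 12 calls, 11 higher and 1 lower, and 1 gene with an adjusted p under 0.05, *Scarna3a*. An unadjusted p under 0.05 in limma was found for 21 of the 32 genes, against 9.34% of all genes, and for 17 of the 28.

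**Figure D3:**
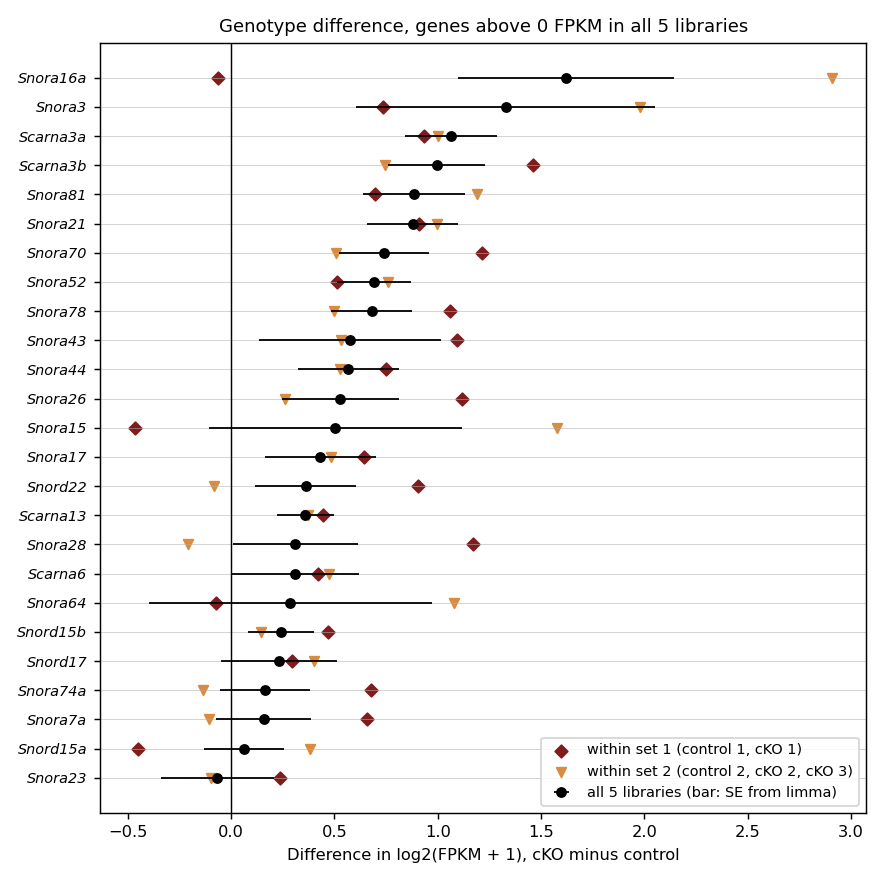
Difference in log2(FPKM + 1), cKO minus control (horizontal axis), for the 25 genes above 0 in all 5 libraries, with the fit over all libraries (black, bars are the SE from limma) beside the difference within set 1 (diamonds) and within set 2 (triangles). Within both sets 16 genes lie right of 0, while *Snora16a* lies at −0.06 within set 1 and at 2.91 within set 2.

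Among the scaRNA genes, all 4 had higher means in the cKO group (median log2 difference 0.68) and within both sets. *Scarna3a* had 968 FPKM in control 1 and 1372 FPKM in control 2, and 1852, 2534 and 2979.6 FPKM in cKO 1, 2 and 3. All 3 cKO libraries were above both controls. Its mean was 1170.1 ± 286 FPKM in controls (SD, n = 2) and 2455 ± 568 FPKM in cKO (SD, n = 3), a ratio of 2.10, with a log2 difference of 1.06 (SE 0.22, limma adjusted p = 0.955) that was 0.94 within set 1 and 1.001 within set 2. With the set as a block the difference was 0.97 and its limma adjusted p = 0.0320, while over the alternatives the adjusted p ran from 0.0320 to 0.9998. *Scarna3b*, its relative, had 316 and 334 FPKM in controls 1 and 2 and 873, 688 and 455 FPKM in cKO 1, 2 and 3, again without overlap. The ratio of its means was 2.07 and the log2 difference 0.996 (SE 0.23, limma adjusted p = 0.955), with 1.46 within set 1 and 0.74 within set 2. The cKO libraries ranked in opposite order for the pair, cKO 3 being highest for *Scarna3a* and lowest for *Scarna3b*.

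*Scarna13*, the U93 RNA with a doubled H/ACA structure, was the only one of the 32 genes for which no host was annotated. It had 971 and 838 FPKM in controls 1 and 2 and 1319, 1158 and 1014 FPKM in cKO 1, 2 and 3, so the groups were apart by a small margin (log2 difference 0.36, SE 0.14, limma adjusted p = 0.955). *Scarna6*, the U88 RNA, had 1449.8 and 793 FPKM in control libraries against 1942, 1119 and 1082 FPKM in cKO 1, 2 and 3. Here set membership outweighed genotype: both libraries of set 1 were above all 3 of set 2, and the differences within the sets were 0.42 and 0.47.

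In the H/ACA class 7 genes met the fold and p threshold on the higher side, and *Snora31*, described above, was 1 of them. *Snora21*, in an intron of *Rpl23*, had 1733 and 1204 FPKM in controls 1 and 2 and 3255, 2794 and 2063 FPKM in cKO 1, 2 and 3. All cKO libraries exceeded both controls, with a ratio of means of 1.84 (log2 difference 0.88, SE 0.22, limma adjusted p = 0.955; 0.91 within set 1 and 0.99 within set 2). *Snora70* lies within the ribosomal protein gene *Rpl10*. It had 1080.4 and 1067 FPKM in control libraries against 2507, 1449.9 and 1583 FPKM in cKO 1, 2 and 3. The controls agreed closely and cKO 1 was the highest, with a log2 difference of 0.74 (SE 0.22) that was 1.21 within set 1 and 0.51 within set 2. *Snora78*, in an intron of *Snhg9*, followed the same order, with 2997 and 2953 FPKM in control libraries against 6239, 3894 and 4462 FPKM in cKO 1, 2 and 3. Its log2 difference was 0.68 (SE 0.20), 1.06 within set 1 and 0.50 within set 2. *Snora78* also lies opposite *Rps2* on the other strand, and since the use of strand in counting is not given in the sources used here, reads of the overlapping genes may not be told apart.

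*Snora52*, within *Rplp2*, had 499 and 527 FPKM in controls 1 and 2 and 713, 1078 and 742 FPKM in cKO 1, 2 and 3. The groups did not overlap and cKO 2 was the highest library (log2 difference 0.69, SE 0.18; 0.51 within set 1 and 0.76 within set 2). *Snora81*, within the translation factor gene *Eif4a2*, was among the weakest genes. It had 23.1 and 12.5 FPKM in control libraries against 38.0, 34.3 and 25.7 FPKM in cKO 1, 2 and 3. These groups too were apart, cKO 3 lying close to control 1 (log2 difference 0.88, SE 0.25; 0.70 within set 1 and 1.19 within set 2). *Snora16a*, in an intron of *Snhg12*, had 67.0 and 18.9 FPKM in controls 1 and 2 and 64.1, 164 and 133 FPKM in cKO 1, 2 and 3. It met the threshold with a log2 difference of 1.62 (SE 0.52), but its groups overlapped, and the difference was −0.06 within set 1 and 2.91 within set 2. Its value thus turned on control 2.

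The 3 most abundant H/ACA genes, *Snora74a*, *Snora44* and *Snora26*, did not meet the threshold. *Snora44*, within *Snhg12*, had 4938 and 4261 FPKM in controls 1 and 2 and 8315, 7994 and 4729.8 FPKM in cKO 1, 2 and 3. Here cKO 3 lay between the controls and the other 2 cKO libraries were well above both (log2 difference 0.57, SE 0.25, limma adjusted p = 0.955). *Snora26*, within *Dancr*, had 3606 and 3331 FPKM in control libraries against 7829.6, 3902 and 4084 FPKM in cKO 1, 2 and 3. The groups did not overlap, but cKO 1 carried most of the log2 difference of 0.53 (SE 0.28), which was 1.12 within set 1 and 0.26 within set 2. For *Snora74a* the log2 difference was 0.17 (SE 0.22), with 0.68 within set 1 and −0.14 within set 2. The less abundant *Snora43*, within *Snhg7*, did not meet the threshold either. It had 145 and 80.6 FPKM in control libraries against 311, 139.6 and 97.7 FPKM in cKO 1, 2 and 3. Its groups overlapped (log2 difference 0.58, SE 0.44).

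The box C/D genes had the smallest median log2 difference of the classes (0.24, against 0.47 for Snora and 0.68 for Scarna genes). None of the 4 met the threshold. Gene by gene, the differences of the classes overlapped. *Snord22*, the U22 RNA, lies within *Snhg1*. It had 3177 and 5105 FPKM in controls 1 and 2 and 5939, 5854 and 3974 FPKM in cKO 1, 2 and 3. The groups overlapped, and the log2 difference of 0.36 (SE 0.25, limma adjusted p = 0.955) was 0.90 within set 1 and −0.08 within set 2. *Snord15b*, which guides methylation of the large ribosomal RNA, had 3844 and 3646 FPKM in control libraries against 5326, 3855 and 4223 FPKM in cKO 1, 2 and 3. Control 1 and cKO 2 were all but equal, and the log2 difference was 0.24 (SE 0.16; 0.47 within set 1 and 0.15 within set 2). *Snord17*, in an intron of *Snx5*, had 2935 and 1679 FPKM in control libraries against 3601, 2251 and 2184 FPKM in cKO 1, 2 and 3. As with *Scarna6*, set 1 was above set 2 in either genotype, with differences of 0.29 and 0.40 within the sets.

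The remaining 8 genes were *Snora15*, *Snora17*, *Snora23*, *Snora28*, *Snora3*, *Snora64*, *Snora7a* and *Snord15a*. They ranged from 80.4 to 3752 FPKM over all libraries, 7 had a log2 difference above 0 and 1 below, and none had an unadjusted p under 0.05 (limma adjusted p = 0.955 to 0.989). The largest difference in this group, 1.33 for *Snora3*, came with the widest spread, since its cKO libraries ran from 175 FPKM in cKO 3 to 1257 FPKM in cKO 2.

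Replicates of a genotype differed from each other by much of the genotype difference. Over the 25 genes above 0 in every library, the median SD was 23.5% of the mean in controls and 31.2% in cKO, while the median ratio of the group means was 1.37. The library cKO 1 had the highest value of all 5 for 20 of the 32 genes, and control 2 had the lowest for 16 of the 25. In sum, the 32 genes held 47944 FPKM in control 1 and 41912 FPKM in control 2, or 8.22% and 7.41% of all FPKM. They held 70432, 52777 and 46256 FPKM in cKO 1, 2 and 3, or 11.1%, 9.002% and 7.94%. The summed level of control 1 was thus above that of cKO 3, and *Snora5c* alone contributed 5533 FPKM to it.

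**Figure D4:**
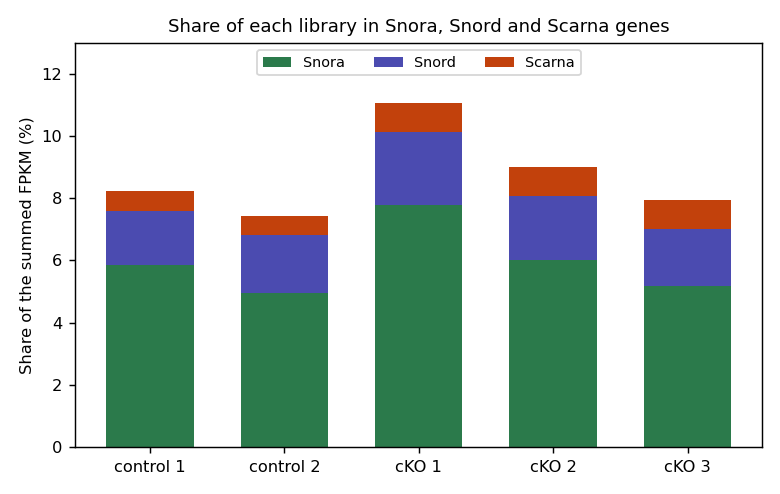
Share of the summed FPKM of each library (vertical axis, %) in Snora, Snord and Scarna genes, stacked, 1 bar per library. The totals are 8.22% and 7.41% in controls 1 and 2 and 11.1%, 9.002% and 7.94% in cKO 1, 2 and 3, and Scarna genes hold 0.590% to 0.636% in the controls and 0.938% to 0.950% in the cKO libraries.

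The Scarna genes held 3705 and 3337 FPKM in controls 1 and 2 and 5986, 5499 and 5530.4 FPKM in cKO 1, 2 and 3. The 3 cKO libraries were close to each other and above both controls. The Snord genes held 10111 and 10559 FPKM in control libraries against 14978, 12112 and 10566 FPKM in cKO 1, 2 and 3, where cKO 3 was level with control 2. The Snora genes held most of the FPKM, with 34129 and 28016 FPKM in controls 1 and 2 and 49468, 35166 and 30159 FPKM in cKO 1, 2 and 3, and here control 1 was above cKO 3.

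The summed level of other short non-coding RNAs was also highest in cKO 1. Of 12 such genes in the tables, 6 were above 0 and tested, of which 5 were higher and 1 lower in the cKO group with a median log2 difference of 0.25 (0.34 with the set as a block), a lean in the same direction as that of the 32 genes (0.36). Together they held 14.5% to 16.3% of the FPKM in controls, 18.3% in cKO 1 and 13.1% to 14.4% in cKO 2 and cKO 3. The highest of them, *Rmrp*, the RNA of the RNase MRP complex, had 52772 and 41261 FPKM in controls 1 and 2 and 67867, 39835 and 43087 FPKM in cKO 1, 2 and 3. Its groups overlapped, and cKO 1 was the highest library here as well. Relative to the sum of these other short RNAs, the 32 genes stood at 0.504 and 0.512 in the controls and 0.605, 0.687 and 0.550 in cKO 1, 2 and 3. On this ratio, given as a description, the groups did not overlap and cKO 2 was the highest. *Rnu12*, the U12 spliceosomal RNA, was the 1 gene of this list to meet the fold and p threshold, with 479 and 686 FPKM in control libraries against 1202, 799 and 771 FPKM in cKO 1, 2 and 3 (log2 difference 0.66, SE 0.22, limma adjusted p = 0.955). The list's other 6 genes were listed at 0 in all libraries, including *Bc1*, an RNA that neurons make in quantity. The part of library preparation and size selection in these levels was not tested.

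Most host genes differed less between genotypes than the small RNAs they hold. Hosts were annotated for 31 of the 32 genes, in 28 distinct genes, of which 27 were in the tables and 7 encode ribosomal proteins. Of the 28 small RNA genes with a host in the gene models used, 17 lay in an intron. Another 10 lay within, and 1 partly within, an exon of at least 1 annotated transcript of the host. Exons of all transcripts were pooled, so another transcript of that host may have an intron there. Fragments of these 11 may come from host transcripts that keep the sequence. For *Snora15*, *Snora24* and *Snora26*, which had no match in those models, the host was taken from the nesting of RefSeq genes in GRCm38.p6, where strand was not checked. The 27 hosts had means of 2.33 to 829.6 FPKM, 20 were higher and 7 lower in the cKO group, and the median log2 difference was 0.10. No host had an adjusted p under 0.05.

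One host met the fold and p threshold. *Snhg9*, the non-coding host of *Snora78*, had 17.5 and 11.7 FPKM in controls 1 and 2 and 39.6, 31.4 and 16.2 FPKM in cKO 1, 2 and 3. Its groups overlapped, since cKO 3 lay below control 1, and the log2 difference was 0.88 (SE 0.33, limma adjusted p = 0.955), with 1.14 within set 1 and 0.89 within set 2. The call was lost when control 2, cKO 1 or cKO 2 was left out. In *Snora78* itself cKO 3 was the second highest library, so the order of libraries differed between the RNA and its host. *Tbrg4*, the host of *Snora5c*, had the most negative difference, with 5.91 and 5.30 FPKM in control libraries against 5.06, 3.30 and 4.001 FPKM in cKO 1, 2 and 3 (log2 difference −0.38, SE 0.17, limma adjusted p = 0.955). Its controls lay close together, whereas *Snora5c* had 5533 FPKM in control 1 and 0 in control 2.

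**Figure D5:**
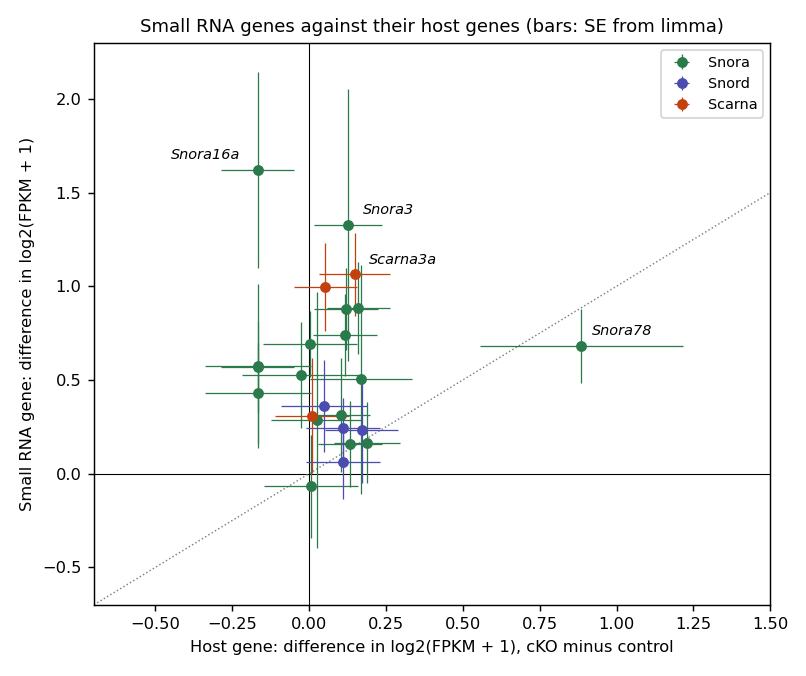
Difference in log2(FPKM + 1), cKO minus control, of 24 small RNA genes above 0 in all libraries (vertical axis) against that of their host genes (horizontal axis), with SE bars from limma, colours for the 3 classes and a dotted line of equal difference. In 21 of 24 pairs the small RNA has the larger difference in size, and *Snora78* with *Snhg9* (host difference 0.88) lies far to the right of the others.

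Small RNA levels did not follow host levels. In 24 of 30 pairs the small RNA had the higher mean FPKM, from *Snora26*, 1677 times the level of *Dancr* (a pair whose strand was not checked), down to *Snora81*, at 0.0499 times the level of *Eif4a2*. Across the 30 pairs the Spearman correlation was 0.0056 for levels and 0.19 for log2 differences, given as descriptions of pairs that share libraries and in part hosts. The small RNA had the larger difference in size in 27 of 30 pairs (median 0.63 against 0.13). These 30 include *Snora5c*, *Snora35* and *Snora31*, which were at 0 in a whole group and had to differ. Over the 24 pairs without a 0 the small RNA had the larger difference in 21, and the correlation of the differences was −0.07.

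Small RNAs of the same host differed widely in level. In *Snhg12*, *Snora44* averaged 67.6 times *Snora16a*, with a ratio between 35.6 and 226 over the libraries, while *Snora61* (130 nt) and *Snord99* (74 nt) from the same host were at 0. In *Rps3*, *Snord15b* averaged 28.4 times *Snord15a* (22.7 to 47.2 over the libraries). *Snora17* and *Snora43* of *Snhg7* were close to each other, with a ratio of 1.43 (1.11 to 1.95). *Kansl2* held *Snora34*, with a mean of 268 FPKM, and *Snora2b* (137 nt) at 0, and *Eif4a2* held *Snora81* and *Snord2* (69 nt) at 0. Over all classes host level did not mark the genes at 0, since 54 of the 56 hosts of such genes had a mean of at least 1 FPKM. Their median was 36.2 FPKM against 23.9 FPKM for hosts of genes above 0. Host ranges overlapped in the Snora and Snord classes. In the Scarna class they did not, with 16.0 to 20.1 FPKM for 3 hosts of genes above 0 and 2.20 to 3.29 FPKM for 3 hosts of genes at 0.

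The protein genes of the pathway had differences close to those of all genes. Lists of the box C/D and H/ACA core proteins, their assembly factors, Cajal body proteins, trimming and decay enzymes, ribosomal RNA processing factors and RNA polymerase I held 75 genes with a value, of which 41 were higher and 34 lower in the cKO group with a median log2 difference of 0.01. None met the fold and p threshold, none had an adjusted p under 0.05, and 2 had an unadjusted p under 0.05, a smaller share than the 4.36% of all genes. These were *Taf1b*, a polymerase I initiation factor (log2 difference 0.39, limma adjusted p = 0.955), and *Emg1*, a ribosomal RNA methyltransferase (log2 difference 0.27, limma adjusted p = 0.955). *Dkc1*, which encodes dyskerin, had 6.63 and 7.97 FPKM in controls 1 and 2 and 6.599, 8.96 and 7.33 FPKM in cKO 1, 2 and 3. *Fbl*, which encodes fibrillarin, had 13.7 and 12.3 FPKM in control libraries against 11.7, 11.5 and 13.5 FPKM in cKO 1, 2 and 3. Both overlapped between the groups. *Gar1*, an H/ACA core protein gene with the most negative difference of the 75, had 3.005 and 3.18 FPKM in control libraries against 3.30, 1.96 and 1.34 FPKM in cKO 1, 2 and 3 (log2 difference −0.40, SE 0.24, limma adjusted p = 0.955).

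Marker genes of cell types were compared beside these results. Of 15 neuron markers 14 were lower in the cKO group, with a median log2 difference of −0.13, none called and summed levels of 3030.5 to 3302 FPKM in controls and 2879 to 3193 FPKM in cKO. Of 15 astrocyte markers 9 were higher, with sums of 4239 to 4335 FPKM in controls and 4497 to 4608 FPKM in cKO, and 1, the water channel gene *Aqp4*, met the fold and p threshold (log2 difference 0.78, SE 0.09, limma adjusted p = 0.175). Oligodendrocyte markers were higher in 11 of 15 (1767 to 2079 FPKM in controls, 1773 to 2232 FPKM in cKO), and microglia markers in 9 of 15 (447 to 526 FPKM and 457 to 530 FPKM). No gene of these 4 lists was at 0 in any library. Choroid plexus markers varied most between libraries, with sums of 51.2 to 222 FPKM in controls and 78.5 to 685 FPKM in cKO, and 3 of 10 (*Folr1*, *Kcnj13* and *Otx2*) were at 0 in some library. The part of cell composition in the small RNA results was not tested.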

How the data were processed

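Total hippocampal RNA was sequenced on an Illumina HiSeq instrument after preparation with the TruSeq Total RNA kit (2 control and 3 *Hdac1* cKO libraries). The authors collapsed identical reads, aligned them with TopHat and Bowtie and computed the deposited FPKM values per gene with Cufflinks 2.0.0 on the mm9 annotation. Use of strand, treatment of reads with several alignments and the effective length of short genes are not given in the sources used here. Counts were not used, so depth was estimated from steps in low FPKM values of genes under a mean of 0.3 FPKM, which also defined the sets.

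Genes averaging 1 FPKM or more were tested on log2(FPKM + 1) with limma 3.58.1 in R 4.3.3 (empirical Bayes with trend, two-sided), with Benjamini-Hochberg adjustment over all 12740 genes. Fold changes are on that scale, which understates those of low genes. Tests were tried on simulated data. Gene models and sequences were from GENCODE vM1 on NCBIM37, read with pysam 0.24.0, and copies were sought with blastn 2.17.0. A host was a gene on the same strand whose span holds the small RNA, or, for genes with no match in those models, a RefSeq gene of GRCm38.p6 whose span holds it, with strand not checked. Genes given with the value in every library met a threshold, were at 0 in a library or group, or were among the highest or lowest of their class. Members and lists were chosen with earlier results of these data known. Alternatives changed the pseudocount (0.1), filter, scaling, variance trend, blocks and libraries.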

Additional observations from a re-analysis of the deposited data

How the results depend on the processing

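The number of small RNA genes with an adjusted p under 0.05 was 1 with genotype alone (*Snora30*, which had to differ), 7 when a replicate block was added (0.11% of all genes), 2 when sets were blocked instead, and 1 to 4 when a library was left out (4 without control 2, with 0.00784% to 0.0393% of all genes). The number meeting the fold and p threshold was 11, 19 with the replicate block (1.04% of all genes, against 0.659% without it) and 7 to 14 when a library was left out (0.722% to 1.84% of all genes). The correlation of deviations for the same-numbered pairs was 0.402 and 0.269, but the labels give the pairing no meaning and there were only 2 pairs. In the fit with the replicate block cKO 3 has no partner and carries no weight in the difference, and little is left to estimate the spread. The 7 genes were *Scarna3a*, *Scarna3b*, *Snora21*, *Snora30*, *Snora34*, *Snora43* and *Snora47*. *Snora30* had to differ, and for *Snora34* and *Snora47* cKO 3 was the library that departed from its group. Host genes called numbered 1, and 0 to 1 when a library was left out, and pathway genes 0, and 0 to 1. The median log2 difference stayed above 0 in every setting run (0.19 to 0.67 when a library was left out). Of 21 named genes run in all 15 alternatives, 16 kept their direction. *Snora24*, *Snora35* and *Snora5c* kept theirs in those in which they were tested. Among the genes that kept it, *Snora30*, *Snora31*, *Snora35* and *Snora5c* were at 0 in a whole group, so their direction could not change. The named genes that changed direction were *Snora34* (0.68 with the replicate block, −3.95 to 0.68 when a library was left out) and *Snord15b* (−0.064 with quantile normalization). When a library was left out, so did *Scarna6* (−0.12 to 0.74), *Snora74a* (−0.042 to 0.30) and *Snord17* (−0.17 to 0.63). The cause was not tested. The unknown fragment number behind short genes limits what a value of 0 can show.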
